A study of Canis lupus familiaris with 10 samples.

Results

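The granins and the neuropeptide precursors of the retina were followed in the glaucomatous dog retina through 10 of the 15115 genes named on the array, taken by name: CHGA, CHGB, SCG2, SCG3, SCG5, TAC1, PENK, SST, NPY and VIP. They were measured by 17 of the 42924 probe sets on the array (an Affymetrix probe set is a group of short DNA probes that report on 1 transcript), and 12 of these probe sets, belonging to 9 genes, were expressed, which means that 2 or more samples exceeded 7 on the log2 scale. Neural retina was taken from 1 eye of each of 5 dogs with primary glaucoma and a closed iridocorneal angle and of 5 healthy Beagles with normal pressure and an open angle, with 1 array per dog and no pooling. The glaucoma group consisted of a Shiba Inu aged 5 years (glaucoma 1), a Shiba Inu aged 14 years (glaucoma 2), a Basset Hound aged 5 years (glaucoma 3), a Basset Hound aged 7 years (glaucoma 4) and a Dalmatian aged 9 years (glaucoma 5). All were patients of a veterinary clinic whose eyes were removed to relieve pain, and all had been given the pressure lowering eye drops latanoprost and a carbonic anhydrase inhibitor. The healthy Beagles (healthy 1 to 5) were all aged 4 years and had received none of these drugs, so that breed, medication and disease cannot be told apart, and no healthy dog was as old as a glaucomatous one. The study's own list of animals gives lower ages for the older Shiba Inu and for the Dalmatian than the sample labels used here.

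Granins are acidic proteins that are packed at high concentration into dense core granules, the secretory vesicles in which neurons and endocrine cells store peptides. Chromogranins and secretogranins help to form these granules and are also cut into smaller peptides. Neuropeptides are made as longer precursors that are sorted into the same granules, cut by prohormone convertases and trimmed before release. In the mammalian retina, substance P, enkephalin, somatostatin, neuropeptide Y and vasoactive intestinal peptide are best known from sparse populations of amacrine cells, the inhibitory interneurons of the inner retina, and from some ganglion cells.

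The deposited values were intensities from RMA (robust multi-array average), a method that corrects background, gives all arrays the same distribution and summarizes each probe set, and they are given here as log2 values. The median intensity was 77.1 to 80.7 per array, and the precision was limited by the number of arrays. Of 13 rod photoreceptor genes 11 were expressed, and their mean was 8.86 or higher in every retina. The array of glaucoma 1 stood apart. It correlated at 0.849 to 0.917 with the other glaucomatous arrays, which correlated at 0.923 or more among themselves, as did the healthy arrays at 0.953 or more. Its mean over the rod markers was 8.86, against 11.47 to 12.31 in the other glaucomatous and 11.64 to 12.30 in the healthy retinas. Pigment epithelium and uveal pigment cell markers averaged 10.83 in glaucoma 1 and 9.97 in healthy 4, against 6.97 to 8.64 in the other 8 retinas. Results that rest on glaucoma 1 are therefore also given without it. For actin and GAPDH controls, the 3' probe sets were compared with the 5' ones as a sign of RNA integrity. Their log2 ratio averaged 0.94 ± 0.14 (SD, n = 5) in glaucoma and 1.19 ± 0.22 (SD, n = 5) in healthy retinas (two-sided exact permutation test, p = 0.056), whereas over all actin and GAPDH control pairs it averaged 1.73 ± 0.22 and 1.74 ± 0.30 (exact permutation test, p = 0.968). In whole retina, fewer cells of a type and less RNA per cell cannot be told apart.

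Of the 12 expressed probe sets, 9 were lower and 0 were higher in the glaucomatous retina (limma, adjusted p under 0.05 over the 18416 expressed probe sets). Of these 9 calls, CHGB gave 3 and SCG5 gave 2. The members were chosen with earlier results of these data known, so the counts and shares are a description. Among all expressed probe sets, 9.40% were lower and 7.58% higher. At an unadjusted p under 0.05, 10 of the 12 were lower and 0 higher, against 18.2% and 14.4% of all expressed probe sets. The median difference was -1.01 on the log2 scale over these 12 probe sets and -0.021 over all expressed ones. In 5 of the 12, fewer than 2 glaucomatous retinas reached the minimum, so that they were tested only through the healthy group. With no filter, 11 of all 17 probe sets were lower, against 4.62% of the 42924, and their median difference was -0.64, against 0.021 over all. Every glaucomatous retina lay below every healthy one in 7 of the 12 expressed probe sets, against 8.03% of all expressed ones, and in 9 of all 17, against 4.54% of the whole array. When each gene was read from its brightest expressed probe set, 6 of 9 genes were lower, against 8.65% of the 7900 expressed genes. These were CHGB, SCG2, SCG5, TAC1, PENK and SST, of which TAC1, PENK and SST were tested only through the healthy group.

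**Figure D1:**
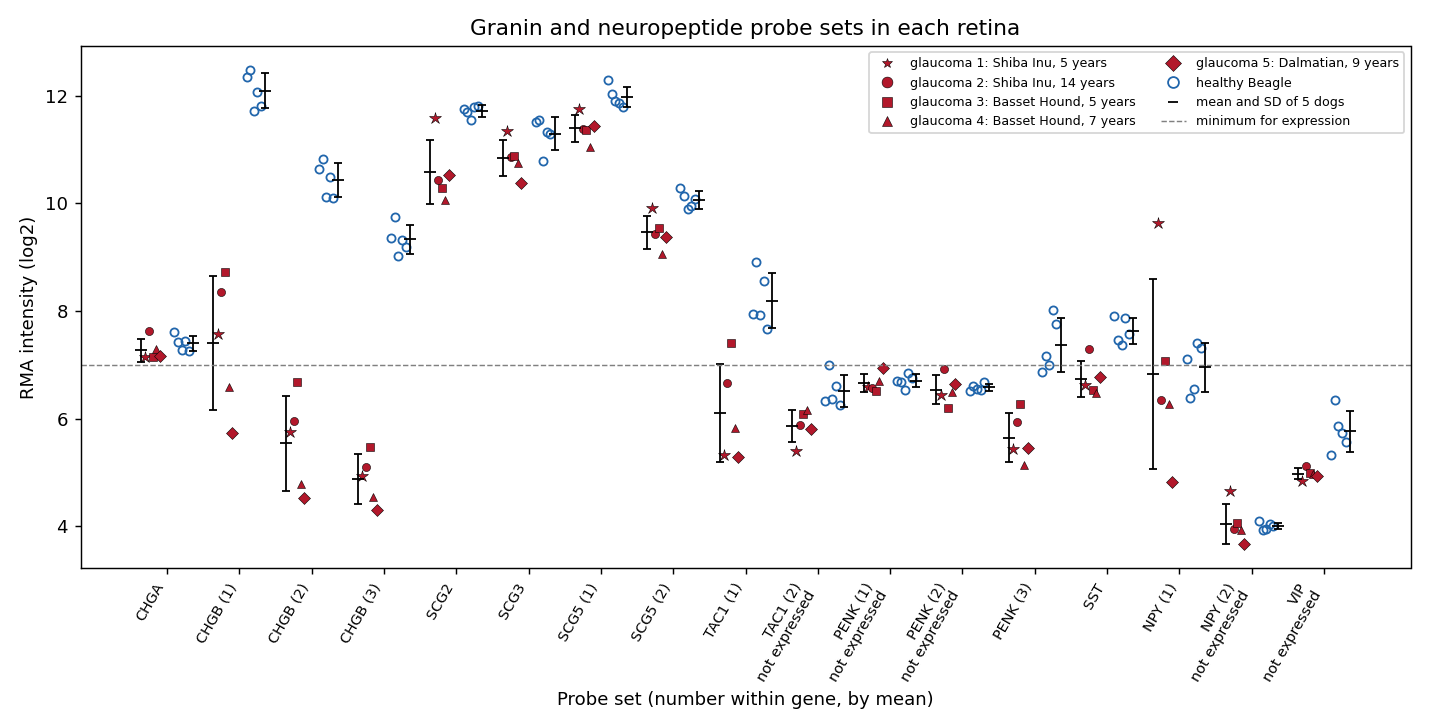
Log2 RMA intensity (vertical axis) of the 17 probe sets of the 10 genes (horizontal axis, numbered within a gene by their mean) in each of the 5 glaucomatous (red, 1 symbol per dog) and 5 healthy (blue circles) retinas, with the mean and SD of each group as black bars and the minimum for expression as a dashed line. The 3 CHGB probe sets show the widest gap between the groups, and NPY (1) the widest spread among the glaucomatous dogs, from 4.83 to 9.63.

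CHGB, chromogranin B, a core protein of the dense core granule, showed the largest reduction of any expressed probe set on the array. Its 3 probe sets ranked 1, 2 and 3 among the 18416 by size of reduction. With the probe set of the highest mean, CHGB measured 7.58, 8.36, 8.73, 6.58 and 5.74 in glaucoma 1 to 5 and 12.35, 12.48, 11.72, 12.07 and 11.81 in healthy 1 to 5. The highest glaucomatous retina, that of the younger Basset Hound, thus lay well under the lowest healthy one, and the Dalmatian was lowest. The difference was -4.69 with an SE of 0.50, a 25.8-fold lower signal (95% confidence interval of the log2 difference -5.78 to -3.59, limma adjusted p = 0.00018). The next probe set, of a kind (s_at) whose probes are shared by several transcripts, fell from 10.43 ± 0.32 to 5.54 ± 0.88 (SD, n = 5 each), a difference of -4.89 with an SE of 0.37 (adjusted p = 4.52e-05). The last, also of that kind, fell from 9.33 ± 0.27 to 4.88 ± 0.46, a difference of -4.45 with an SE of 0.22 (adjusted p = 8.41e-06). All 3 probe sets placed the 5 diseased dogs in the same order, with glaucoma 3 highest, then glaucoma 2, 1, 4 and 5. In the latter pair, no glaucomatous retina reached the minimum for expression. Over 24 alternative settings, the difference by the brightest probe set ran from -5.07 to -4.01.

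CHGA, chromogranin A, the other classical granin of endocrine cells, did not pass the test. It measured 7.15, 7.63, 7.14, 7.29 and 7.16 in glaucoma 1 to 5 and 7.60, 7.43, 7.27, 7.45 and 7.25 in healthy 1 to 5, close to the minimum for expression in both groups. The groups overlapped, with the older Shiba Inu above every healthy dog. The difference of -0.13 had a 95% confidence interval of -0.39 to 0.14 (adjusted p = 0.512), so that the lower end of the interval was smaller in size than -0.57, the smallest difference of a member that passed the test. Expressed markers of neuroendocrine and autonomic cells were limited to INSM1, at 7.91 in glaucoma and 7.92 in healthy retina on average.

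SCG2, secretogranin II, the precursor of the peptide secretoneurin, measured 11.58, 10.44, 10.28, 10.06 and 10.53 in glaucoma 1 to 5 and 11.75, 11.70, 11.54, 11.78 and 11.80 in healthy 1 to 5. The healthy dogs spanned only 0.26, and 4 of 5 diseased dogs lay below all of them, the exception being glaucoma 1. SCG2 fell by 1.13 on the log2 scale (SE 0.24, adjusted p = 0.00895), a 2.20-fold lower signal. Without glaucoma 1 the difference was -1.39 (adjusted p = 7.22e-05), and with age as a covariate it was -0.96 (adjusted p = 0.0805).

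SCG5, which encodes 7B2, the chaperone of prohormone convertase 2, was lower by a smaller amount. Its first probe set measured 11.75, 11.38, 11.36, 11.04 and 11.44 in glaucoma 1 to 5 and 12.28, 12.02, 11.89, 11.87 and 11.79 in healthy 1 to 5. The groups did not overlap, but glaucoma 1, at 11.75, lay next to the lowest healthy dog, at 11.79. The difference was -0.57 (SE 0.14, adjusted p = 0.0188), a 1.49-fold lower signal, and the other probe set gave -0.60 (SE 0.15, adjusted p = 0.0225). Neither passed the test with the 3' to 5' ratio (adjusted p = 0.17 for both) or with age (0.104 and 0.148) as a covariate, or without healthy 2 (0.0508 and 0.0592), and the second also failed without glaucoma 5 (0.0557), healthy 1 (0.0521) or healthy 5 (0.0518).

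SCG3, secretogranin III, which anchors chromogranins to the granule membrane, measured 11.35, 10.86, 10.87, 10.74 and 10.38 in glaucoma 1 to 5 and 11.51, 11.55, 10.78, 11.33 and 11.29 in healthy 1 to 5. Healthy 3 lay among the diseased dogs and glaucoma 1 among the healthy ones. The difference of -0.45 (SE 0.19) did not pass the test (adjusted p = 0.13). Without glaucoma 1 it was -0.58 and passed (adjusted p = 0.0422).

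**Figure D2:**
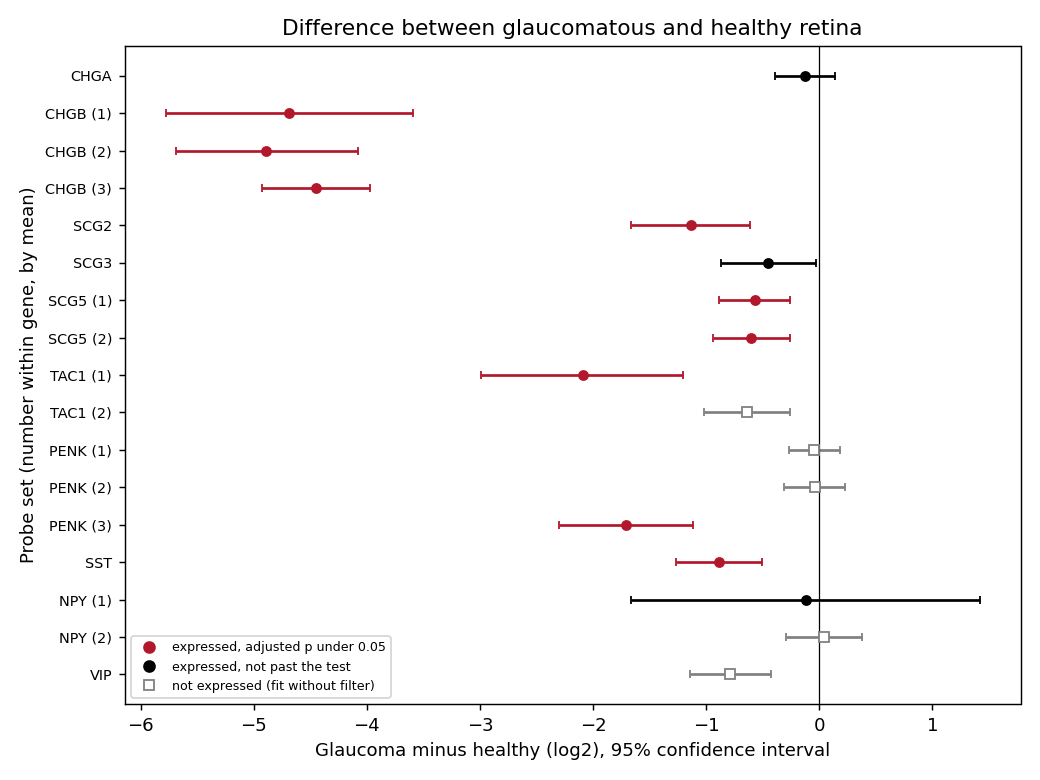
Difference between the glaucomatous and healthy means (horizontal axis, log2) with its 95% confidence interval for each of the 17 probe sets (vertical axis). Filled circles are expressed probe sets, red where the adjusted p was under 0.05, and open squares are probe sets that were not expressed, with values from the fit without a filter. CHGB lies between -4.89 and -4.45, and the interval of NPY (1) is the widest, from -1.66 to 1.42.

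Among the precursors, TAC1, which encodes substance P and neurokinin A, was lower by 2.09 (SE 0.41, adjusted p = 0.00578), a 4.27-fold lower signal. Its expressed probe set measured 5.33, 6.67, 7.40, 5.83 and 5.28 in glaucoma 1 to 5 and 7.94, 8.90, 7.93, 8.55 and 7.66 in healthy 1 to 5. Only glaucoma 3 was above the minimum for expression among the diseased dogs, and the groups did not overlap. The other TAC1 probe set was not expressed, at 5.40 to 6.16 in glaucoma and 6.25 to 7.00 in healthy retinas. In the fit without a filter its difference was -0.64 (adjusted p = 0.0421). With the 3' to 5' ratio as a covariate the TAC1 difference was -1.56 and did not pass (adjusted p = 0.0859).

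PENK encodes proenkephalin, the source of the enkephalins. With its only expressed probe set it measured 5.44, 5.94, 6.28, 5.14 and 5.45 in glaucoma 1 to 5 and 6.87, 7.17, 6.99, 8.02 and 7.75 in healthy 1 to 5. All diseased dogs were below the minimum for expression and below all healthy dogs. The difference was -1.71 (SE 0.27, adjusted p = 0.00178), a 3.27-fold lower signal. The other PENK probe sets, both of the s_at kind, were not expressed in any group and did not follow it. They differed by -0.05 (95% confidence interval -0.27 to 0.18) and -0.04 (-0.31 to 0.23), so that the 3 probe sets of PENK disagree.

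SST, the somatostatin precursor, measured 6.62, 7.30, 6.54, 6.48 and 6.77 in glaucoma 1 to 5 and 7.90, 7.46, 7.36, 7.86 and 7.58 in healthy 1 to 5. The older Shiba Inu came closest to the healthy dogs but stayed under all of them. SST fell by 0.89 (SE 0.17, adjusted p = 0.00597), a 1.85-fold lower signal. With the 3' to 5' ratio as a covariate the difference was -0.80 (adjusted p = 0.0757).

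NPY, the neuropeptide Y precursor, behaved differently from dog to dog. With its expressed probe set, again of the s_at kind, it measured 9.63, 6.35, 7.07, 6.28 and 4.83 in glaucoma 1 to 5 and 7.10, 6.39, 6.55, 7.41 and 7.32 in healthy 1 to 5. Glaucoma 1 was the highest and the Dalmatian the lowest of all 10 dogs, a range of 4.80 among the diseased and 1.03 among the healthy. The difference was -0.12 with an SE of 0.70 (adjusted p = 0.925), and it was -0.82 without glaucoma 1 (adjusted p = 0.183). Across the alternatives it ran from -0.89 to 0.84 and never passed the test. A second NPY probe set, not expressed, stayed between 3.67 and 4.66 in all dogs, and its highest and lowest values were also those of glaucoma 1 and glaucoma 5.

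VIP, the precursor of vasoactive intestinal peptide, was not expressed. Its single probe set measured 4.85, 5.13, 5.00, 4.98 and 4.93 in glaucoma 1 to 5 and 5.33, 6.35, 5.86, 5.73 and 5.57 in healthy 1 to 5. All diseased dogs were below all healthy ones, but both groups were below the minimum for expression. Without a filter the difference was -0.79 (95% confidence interval -1.14 to -0.43, adjusted p = 0.0116).

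**Figure D3:**
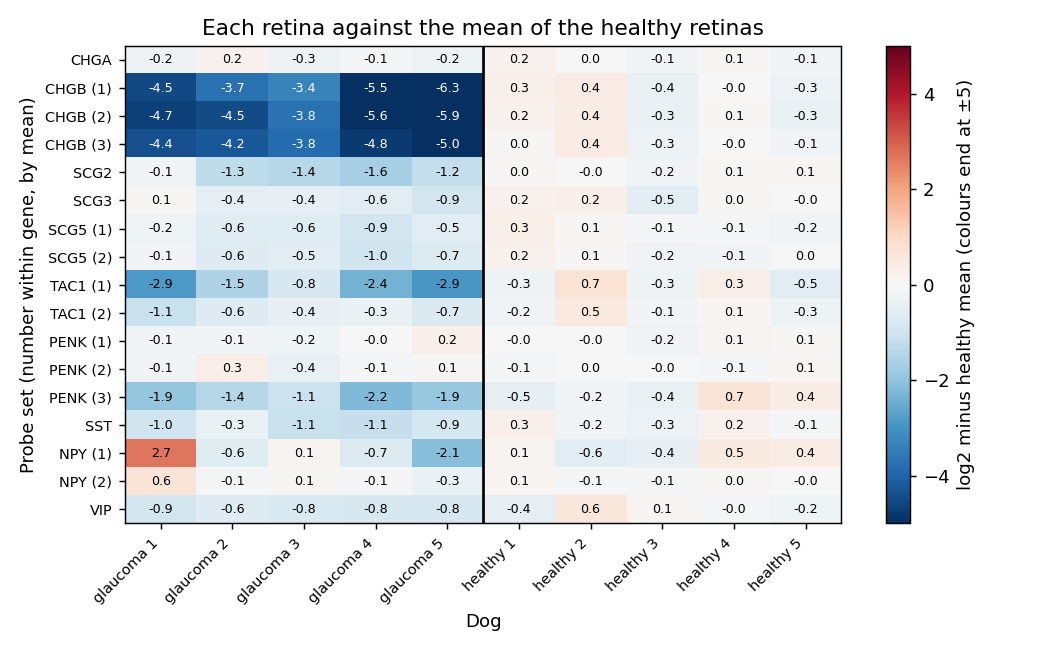
Difference of each retina from the mean of the 5 healthy retinas (colour and printed value, log2) for the 17 probe sets (rows) in the 10 dogs (columns, with a black line between glaucoma and healthy). The CHGB rows are lowest in glaucoma 4 and glaucoma 5, whereas in glaucoma 1 SCG2, SCG3 and SCG5 stay close to 0 and NPY (1) is 2.68 above it.

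The diseased dogs were not ranked alike by all genes. Glaucoma 1 had the highest value of the 5 for 4 genes (SCG2, SCG3, SCG5 and NPY), glaucoma 3 for 3 (CHGB, TAC1 and PENK) and glaucoma 2 for 2 (CHGA and SST). Glaucoma 4 and glaucoma 5 each had the lowest value for 4 genes, and glaucoma 3 for CHGA. The 2 Basset Hounds differed for CHGB, at 8.73 and 6.58, and for TAC1, at 7.40 and 5.83, and they were the highest and the lowest diseased dog for PENK, at 6.28 and 5.14. Without both Basset Hounds 7 of the 12 probe sets were lower, the 2 of SCG5 being lost, and without both Shiba Inus 9 were lower. Of all expressed probe sets, 12.2% and 8.45% were lower in these fits.

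Markers of inner retinal cell types moved closely with CHGB and TAC1, and less closely or not with the other members. Among the 7900 expressed genes, each read from its brightest probe set, 8.65% were lower and 8.04% higher, and at an unadjusted p under 0.05 these shares were 17.0% and 15.2%. Of 8 expressed amacrine cell markers, 6 were lower, and their mean was 7.36, 8.23, 8.22, 7.20 and 6.79 in glaucoma 1 to 5 and 9.07 to 9.52 in healthy retinas. For this marker mean, as for CHGB, glaucoma 2 and 3 were the highest diseased dogs and glaucoma 4 and 5 the lowest. The same held for the ganglion cell and horizontal cell marker means. Deviations of CHGB from the group means correlated at 0.92 with those of amacrine, 0.92 of ganglion, 0.89 of bipolar and 0.94 of horizontal cell markers. For TAC1 these values were 0.77, 0.77, 0.8 and 0.75. With the amacrine cell markers PENK correlated at 0.68, CHGA at 0.44, SST at 0.42 and SCG3 at 0.39. For NPY, SCG5 and SCG2 this value was 0.26, -0.01 and -0.12. GAD1, which makes the transmitter GABA, averaged 7.80 in glaucoma and 10.77 in healthy retina (difference -2.97, adjusted p = 0.00916), whereas PAX6 (-0.23, adjusted p = 0.581) and MEIS2 (-0.58, adjusted p = 0.248) did not pass. Of 12 retinal ganglion cell markers 9 were lower and 1 was higher (mean 7.74 to 9.32 against 9.92 to 10.62), and NEFM, a neurofilament subunit, differed by -4.12 (adjusted p = 0.00194). Of 6 bipolar cell markers 4 were lower (mean 7.65 to 9.25 against 9.87 to 10.34), among them TRPM1, the cation channel of ON bipolar cells (-2.78, adjusted p = 0.00701), as were 4 of 4 horizontal cell markers (5.81 to 7.90 against 8.64 to 8.99), among them CALB1, calbindin (-3.52, adjusted p = 0.00938). NEFM, TRPM1 and CALB1 are single examples and do not stand for their lists. Beside the 1 higher gene, 2 ganglion cell markers did not pass, nor did 2 bipolar cell markers. TFAP2B was listed for both amacrine and horizontal cells, and ISL1 for both ganglion and bipolar cells, so these lists were not separate. The part of these cell types in the lower granin and precursor signal was not tested.

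For SCG2 and NPY the dog that differed from the other diseased dogs was the one with the lowest rod and the highest pigment cell markers. SCG2 was 11.58 in glaucoma 1, at a rod marker mean of 8.86, and 10.06 to 10.53 in the other diseased dogs, at 11.47 to 12.31. NPY was 9.63 in glaucoma 1, at a pigment cell marker mean of 10.83, but 7.41 in healthy 4, at 9.97, against 6.39 to 7.32 in the other healthy dogs. Without both of these arrays, an alternative added after the data were seen, 9 of the 12 probe sets were again lower, against 7.83% of all expressed probe sets. None of the 11 rod markers passed the test in either direction in limma (1 lower and 0 higher at an unadjusted p under 0.05), 9 of 9 microglia and macrophage markers were higher, and of the 9 Müller cell and 12 pigment cell markers 3 and 1 were higher. Of 7 lens markers 0 were called (0 also at an unadjusted p under 0.05). The part of these cells in the values of the members was not tested.

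**Figure D4:**
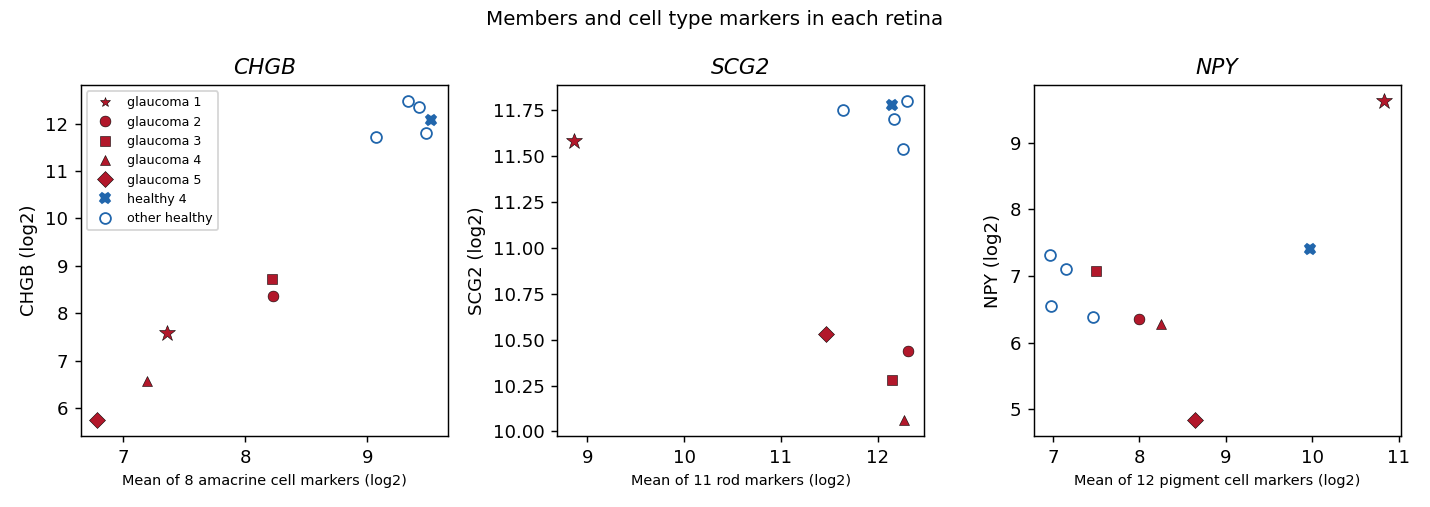
Log2 value of CHGB, SCG2 and NPY (vertical axes, probe set with the highest mean) against the mean log2 value of 8 amacrine cell, 11 rod and 12 pigment cell markers (horizontal axes) in the same retina, with 1 symbol per diseased dog (red) and healthy 4 as a blue cross. In the left panel the diseased dogs run from glaucoma 5 (5.74 at a marker mean of 6.79) to glaucoma 3 (8.73 at 8.22), and in the other panels glaucoma 1 lies apart from the remaining diseased dogs. Ganglion, bipolar and horizontal cell markers, which CHGB followed about as closely, are not drawn.

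Genes whose deviations from the group means were most like those of a member over the 10 dogs were listed by Pearson's r, as a description. For CHGB these were GNG13 (0.959), BMERB1 (0.952) and GAD1 (0.934), all of which were also lower in glaucoma, with log2 differences of -2.70, -2.41 and -2.97. SCG2 was followed most closely by IGFBP6 (0.98), CCND2 (0.979) and AHCYL2 (0.972). In each of these, glaucoma 1 was the highest of all 10 dogs, with IGFBP6 at 9.45 in glaucoma 1 and 7.12 to 8.12 in the other diseased dogs. NPY was followed by CNTN1 (0.968), LGI1 (0.964) and N4BP2L1 (0.945), which were likewise highest in glaucoma 1. For SCG5 the list was ANXA6 (0.978), LOC478702 (0.966) and GRB14 (0.941), and for SCG3 it was DYNLT3 (0.947), TSPAN13 (0.938) and RTN4 (0.938). TAC1 was most like KIFBP, ABCF2 and CDK5 (0.926, 0.926 and 0.924), PENK like DDX24, SLC14A1 and PSMC5 (0.96, 0.932 and 0.926), SST like CERS4, PSMG3 and GMEB2 (0.945, 0.934 and 0.929), and CHGA like VWA5B2, FAM166A and ZNF687 (0.915, 0.914 and 0.906). These values are the highest among 7900 genes, and the points share the arrays and their marker differences.

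Of 6 expressed genes that process granins and prohormones, members left out, 1 was lower and 0 were higher, against 8.65% and 8.04% of the 7900 expressed genes. At an unadjusted p under 0.05, 2 were lower and 0 higher by limma, against 17.0% and 15.2%, and 1 and 0 by the exact Wilcoxon test. The median difference was -0.38, against -0.007 over all expressed genes. The gene that fell was QPCT, glutaminyl cyclase, which forms the pyroglutamate end of peptides. It measured 7.89, 7.24, 7.40, 6.89 and 6.83 in glaucoma 1 to 5 and 9.27, 9.75, 9.43, 9.81 and 9.64 in healthy 1 to 5, a difference of -2.33 (adjusted p = 7.12e-05). PCSK1N, an inhibitor of prohormone convertase 1, differed by -0.29 (adjusted p = 0.118), and CPD, a carboxypeptidase, by 0.26 (adjusted p = 0.304). CPE, the carboxypeptidase that trims most neuropeptides, was 12.19 in glaucoma 1 and 13.32 to 13.86 in the other diseased dogs, against 13.74 to 13.99 in healthy retinas (adjusted p = 0.267), and the difference was -0.47 with glaucoma 1 and -0.18 without it (adjusted p = 0.363). PCSK5, a further convertase, differed by -0.47 (adjusted p = 0.221) and by -0.70 without glaucoma 1 (adjusted p = 0.0179). The probe sets of PAM, which amidates peptides, disagreed: the one with the highest mean differed by -0.04 (adjusted p = 0.898) and another by -1.0 (adjusted p = 0.00461). The latter was 6.05 to 6.94 in glaucoma and was tested only through the healthy group. The convertases PCSK1 and PCSK2 themselves were not expressed. In the fit without a filter PCSK2, at 5.55 in glaucoma and 6.19 in healthy retina on average, differed by -0.65 (adjusted p = 0.0256), which brought the genes of this list that were lower to 2. Of all probe sets, 4.62% were lower in that fit. Without glaucoma 1 there were also 2, with PCSK5 as the other one, against 10.2% of all expressed probe sets.

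Of 13 expressed genes for granule and vesicle release, 6 were lower and 0 higher, against 8.65% and 8.04% of all expressed genes. At an unadjusted p under 0.05, 11 were lower and 0 higher, against 17.0% and 15.2%, with a median difference of -0.72. CADPS, which primes dense core granules for release, measured 8.31, 8.61, 9.41, 8.54 and 7.98 in glaucoma 1 to 5 and 10.27 to 10.55 in healthy retinas, a difference of -1.86 (SE 0.22, adjusted p = 0.000313). SYT4, a synaptotagmin of peptide granules, differed by -1.89 (adjusted p = 0.000476), but at 4.85 to 6.12 in glaucoma it was tested only through the healthy group. With the filter of above 7 in at least 5 samples, 5 genes of this list were lower, against 9.62% of all probe sets tested there. RAB3A, a small GTPase of synaptic and secretory vesicles, differed by -1.69 (adjusted p = 0.00374). EIPR1, needed for granule maturation, fell by 0.49 (adjusted p = 0.00588). The remaining 2 were SNAP25 of the fusion machinery (-1.04, adjusted p = 0.0346) and SLC18A2, a vesicular monoamine transporter (-0.82, adjusted p = 0.0231). Their calls lay near the threshold, and leaving out a dog also left fewer arrays. SNAP25 did not pass without glaucoma 5 (-0.90, adjusted p = 0.0854) or without any 1 of the healthy dogs (-1.07 to -1.02, adjusted p 0.0599 to 0.0816). SLC18A2 did not pass without glaucoma 5 (-0.78, adjusted p = 0.0584), healthy 2 (-0.81, adjusted p = 0.056) or healthy 3 (-0.78, adjusted p = 0.0527). For ICA1 the probe set with the highest mean did not differ beyond the spread (0.01, adjusted p = 0.984), while another differed by -1.45 (adjusted p = 0.000904). The latter was below the minimum for expression in all diseased dogs and was tested only through the healthy group. RIMS2, a scaffold of the release site, measured 7.07 in glaucoma 1, 8.39 to 9.56 in the other diseased dogs and 9.11 to 9.89 in healthy ones. Its difference was -0.72 (adjusted p = 0.258), and -0.31 without glaucoma 1 (adjusted p = 0.408). With the 3' to 5' ratio as a covariate 2 of the 13 genes were lower, and over all expressed probe sets the share that was lower went from 9.40% to 2.83%.

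**Figure D5:**
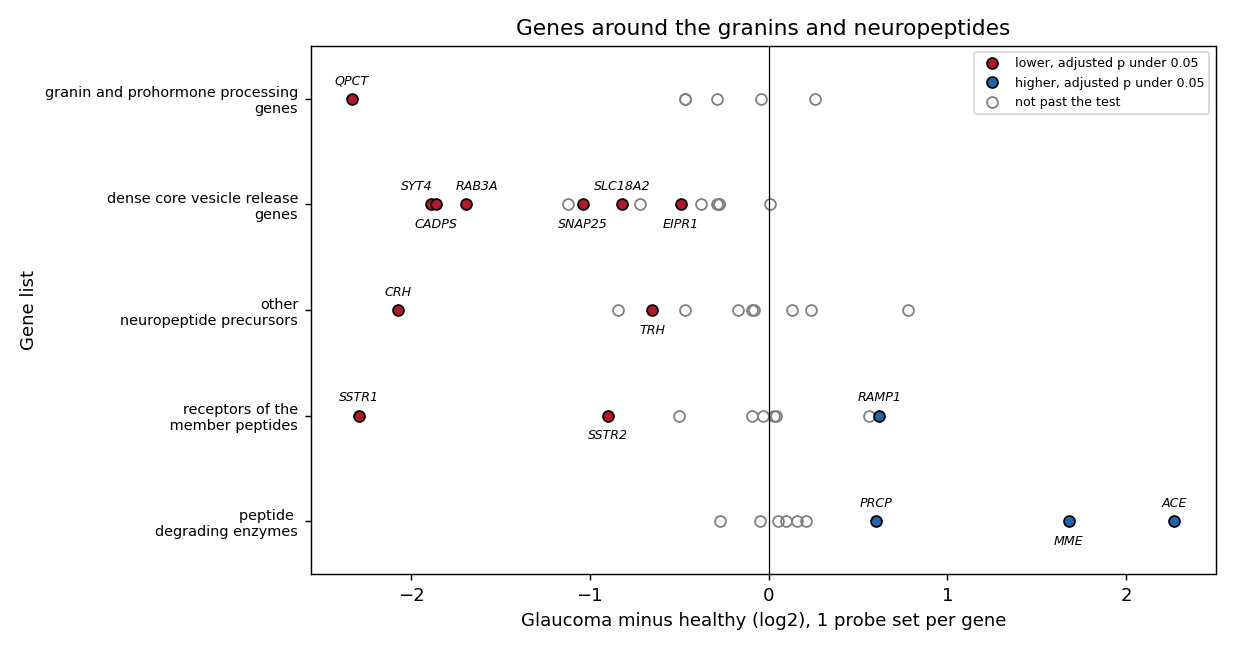
Difference between the glaucomatous and healthy means (horizontal axis, log2) for the expressed genes of 5 lists (vertical axis), each gene shown by its brightest probe set and the 10 members left out. Filled points passed the test and are named, and the open points did not. Named genes of the upper 3 lists lie left of 0, from QPCT at -2.33 to EIPR1 at -0.49, and those of peptide degrading enzymes lie right of it, up to ACE at 2.27.

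Of the other neuropeptide precursors, 10 of 34 listed genes were expressed, of which 2 were lower and 0 higher, against 8.65% and 8.04% of all expressed genes. At an unadjusted p under 0.05, 4 were lower and 0 higher, against 17.0% and 15.2%, with a median difference of -0.13. CRH, corticotropin releasing hormone, measured 6.52, 7.33, 7.14, 6.03 and 5.59 in glaucoma 1 to 5 and 8.52, 8.58, 8.26, 9.03 and 8.58 in healthy 1 to 5. The groups did not overlap, and the difference was -2.07 (SE 0.31, adjusted p = 0.00127). TRH, thyrotropin releasing hormone, differed by -0.65 (adjusted p = 0.021), a call lost without glaucoma 5 (0.055), healthy 2 (0.0608) or healthy 4 (0.0537). It was also lost without both Basset Hounds (0.0633), without glaucoma 1 and healthy 4 (0.0726) and with the 3' to 5' ratio as a covariate (0.0989). TRH was not in the fit limited to probe sets above 7 in at least 5 samples. CARTPT, which encodes the CART peptides, was 8.12 in glaucoma 1 and 5.84 to 6.70 in the other diseased dogs, against 6.97 to 7.84 in healthy ones. Its difference was -0.84 (adjusted p = 0.15), and -1.23 without glaucoma 1 (adjusted p = 0.00307).

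Galanin and cholecystokinin depended on the probe set. For GAL, the probe set with the highest mean, an x_at set whose probes may cross-hybridize, differed by -0.17 (adjusted p = 0.354). Another GAL probe set measured 5.82, 6.17, 5.20, 5.38 and 5.21 in glaucoma 1 to 5 and 8.17, 8.03, 7.93, 7.60 and 8.30 in healthy 1 to 5, a difference of -2.45 (adjusted p = 7.1e-05). All diseased dogs were below the minimum for expression, so that this set was tested only through the healthy group. For CCK, the x_at set differed by -0.47 (adjusted p = 0.132). An a_at set of CCK, whose probes match alternative transcripts of 1 gene, measured 6.37, 8.39, 9.23, 6.28 and 5.42 in glaucoma 1 to 5 against 8.90 to 10.46 in healthy retinas, a difference of -2.39 (adjusted p = 0.0314). The groups overlapped, and the call was lost without glaucoma 1, 4 or 5 or healthy 1, 2, 4 or 5 (adjusted p 0.0532 to 0.0742). As for CHGB and TAC1, glaucoma 3 was the highest and glaucoma 5 the lowest diseased dog. The remaining precursors did not pass: NMB (-0.09, adjusted p = 0.683), HCRT (0.13, adjusted p = 0.397), NPPB (-0.08, adjusted p = 0.878), PTHLH (0.24, adjusted p = 0.623) and OXT, the oxytocin precursor (0.78, adjusted p = 0.406). OXT was highest in the 2 arrays with the highest pigment cell markers, at 10.84 (glaucoma 1) and 9.64 (healthy 4), against 7.92 to 8.38 in the other diseased and 7.30 to 7.54 in the other healthy dogs. Its difference was 0.23 without glaucoma 1 (adjusted p = 0.746), and 0.67 without both arrays, where it passed the test (adjusted p = 0.0106).

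A list of receptors for the member peptides and of accessory proteins had 9 expressed genes, of which 2 were lower and 1 higher, against 8.65% and 8.04% of all expressed genes. At an unadjusted p under 0.05, 3 were lower and 2 higher by limma, against 17.0% and 15.2%, with a median difference of -0.03. The list also held RAMP1, RAMP2 and CRCP, which are not receptors of a member peptide, and the 1 higher gene was RAMP1. The receptors that were lower, SSTR1 and SSTR2, bind somatostatin, and by the probe sets used both were tested only through the healthy group. With no filter 4 of the 20 genes of this list with a probe set were lower, against 4.62% of all 42924 probe sets. Beside SSTR1 and SSTR2 these were the neuropeptide Y receptors NPY5R (-0.86, adjusted p = 0.00527) and NPY1R (-0.48, adjusted p = 0.0388), neither of them expressed. The brightest probe set of TACR3, a neurokinin receptor that was not expressed either, differed by -0.17 (adjusted p = 0.261) and another by -0.89 (adjusted p = 0.00104). SSTR1 measured 4.79, 4.83, 5.00, 4.70 and 4.77 in glaucoma 1 to 5 and 7.25, 6.73, 6.73, 7.27 and 7.56 in healthy 1 to 5, a difference of -2.29 (SE 0.16, adjusted p = 4.27e-05). The 5 diseased dogs lay close together, below the minimum for expression. SSTR2 measured 6.96, 6.83, 6.59, 6.51 and 6.65 in glaucoma 1 to 5 and 7.60, 7.78, 7.62, 7.32 and 7.71 in healthy 1 to 5, a difference of -0.90 (SE 0.12, adjusted p = 0.000772). Other expressed probe sets of SSTR2 differed by -1.10 (adjusted p = 0.0368) and -0.26 (adjusted p = 0.1). SSTR3 (0.04, adjusted p = 0.829) and SSTR5 (0.03, adjusted p = 0.839) did not pass, nor did the neurokinin receptor TACR2 (-0.09, adjusted p = 0.724) or VIPR2, a receptor of vasoactive intestinal peptide (0.56, adjusted p = 0.089). RAMP1, an accessory protein of the CGRP receptor, was higher by 0.62 (adjusted p = 0.0402) but passed in 10 of 24 alternatives and was lost, among others, without glaucoma 1 (0.0662), 2 (0.0511), 3 (0.0704) or 4 (0.0524) and without healthy 1 (0.0781), 2 (0.1) or 5 (0.0988). RAMP2 differed by -0.50 (adjusted p = 0.118) and by -0.66 without glaucoma 1 (adjusted p = 0.0227), and CRCP by -0.03 (adjusted p = 0.862).

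Of 9 expressed genes for peptide degrading enzymes, 3 were higher and 0 lower, against 8.04% higher and 8.65% lower among all expressed genes. At an unadjusted p under 0.05, also 0 were lower, by limma and by the exact Wilcoxon test. The median difference was 0.16. ACE, angiotensin converting enzyme, measured 9.72, 9.93, 8.95, 9.74 and 9.97 in glaucoma 1 to 5 and 7.79, 6.82, 7.79, 7.79 and 6.76 in healthy 1 to 5. All diseased dogs were above all healthy ones, and the difference was 2.27 (SE 0.27, adjusted p = 0.000352). MME, neprilysin, which cuts enkephalins and substance P, measured 9.21, 6.70, 6.00, 8.10 and 7.50 in glaucoma 1 to 5 and 5.73 to 5.90 in healthy retinas. It was therefore tested only through the glaucomatous group. The difference was 1.68 (SE 0.48, adjusted p = 0.0353), with glaucoma 1, the retina with the highest pigment cell marker mean (10.83), highest, and it passed in 11 of 23 alternatives. Without glaucoma 1 the difference was 1.26 (adjusted p = 0.0284), and without glaucoma 1 and healthy 4 it was 1.26 and did not pass (adjusted p = 0.0536). The part of pigment cells in the MME signal was not tested. PRCP, a lysosomal carboxypeptidase, was higher by 0.60 (adjusted p = 0.0387) and passed in 12 of 24. Both MME and PRCP lost their call without glaucoma 4 (0.073 and 0.0763) and without any 1 of the 5 healthy dogs, and MME also without glaucoma 5 (0.0731). PREP, prolyl endopeptidase, differed by 0.21 (adjusted p = 0.287), LNPEP by 0.16 (adjusted p = 0.871) and THOP1 by 0.05 (adjusted p = 0.759).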

How the data were processed

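Retinal RNA of 5 dogs with glaucoma and 5 healthy dogs was measured on Affymetrix canine arrays, 1 per dog. The authors normalized the arrays with RMA, and the deposited values are intensities on a linear scale, of which log2 was taken here. Of 43035 probe sets, 111 array controls were left out, and 18416 met the authors' definition of expression (above 7 on the log2 scale in 2 or more samples). Glaucoma was tested against healthy with limma 3.58.1 under R 4.3.3, with moderation and Benjamini-Hochberg adjustment over all expressed probe sets, and called at an adjusted p under 0.05. The authors used SAM and the Wilcoxon test; the exact Wilcoxon test is an alternative here and SAM was not run. Arrays have no read depth.

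Symbols came from the platform annotation, which gave 1 symbol to 29254 of the 42924 probe sets, several to 439 and none to 13231. All 10 member symbols, and 9 of the 10 gene IDs, were found in RefSeq. Probe sets ending in s_at hold probes shared by several transcripts. A gene in a list was represented by its expressed probe set with the highest mean (7900 genes).

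The members and lists were chosen with earlier results of these data known. Named were all members, all expressed precursors and receptors, the 4 genes with the smallest and the 2 with the largest p of each other list, markers from among the 3 with the highest mean per cell type, and the 3 genes most like each member. SNAP25, SLC18A2, PCSK2, NPY1R, NPY5R, TACR3 and the other probe sets of ICA1, PAM, GAL, CCK and SSTR2 were picked after their values were seen. Alternatives were another filter or none, quantile or median centring between arrays, trend and robust options, array weights, the replicate block, age and the 3' to 5' ratio as covariates, breeds or single dogs left out, and, added after seeing the data, the ratio over all control pairs and the removal of glaucoma 1 with healthy 4.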

Additional observations from a re-analysis of the deposited data

Results flagged for a closer look

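In 90 groups of 5 dogs (each probe set of a member and each expressed probe set of the other precursors and receptors, in glaucoma and in healthy retinas), a dog was marked where its gap to the nearest dog, divided by the range of the group, exceeded 0.71. Chance marks about 1 in 20 groups, and 5 were marked, none of them in a probe set of the 10 granin and neuropeptide genes. For OXT, which encodes oxytocin, glaucoma 1 measured 10.84, against 7.92 to 8.38 in the other diseased dogs, and healthy 4 measured 9.64, against 7.30 to 7.54 in the other healthy dogs. These are the 2 arrays with the highest pigment cell markers, at means of 10.83 and 9.97, and the part of those cells was not tested. Without both arrays OXT was higher in glaucoma by 0.67 (limma adjusted p = 0.0106), against 0.78 (adjusted p = 0.406) with all dogs. A GAL probe set of the s_at kind measured 7.29 in glaucoma 5, against 6.99 to 7.03 in the other diseased dogs. CRCP was lowest in glaucoma 5, at 7.32, against 7.61 to 7.65. RAMP2 was lowest in healthy 3, at 7.30, against 7.85 to 8.02.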

How the results depend on the processing

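The differences of CHGB, SCG2, SCG3, SCG5, TAC1, PENK and SST were below 0 under every alternative run for them. Of these alternatives CHGB passed the test in 23 of 24 and PENK in 22 of 23, both failing in the exact Wilcoxon test. PENK was not in the fit limited to probe sets above 7 in at least 5 samples. With 5 against 5 dogs that exact test can go no lower than p = 0.00794, and its smallest adjusted p was 0.0534. It therefore called 0 member probe sets lower and 0 higher, and 0 and 0 genes of the 5 lists, although 9 of the 12 member probe sets were lower and 0 higher at an unadjusted p under 0.05, against 14.5% and 11.8% of all expressed probe sets. With the 3' to 5' ratio of 2 control pairs as a covariate, 5 member probe sets were lower in place of 9, and 6 genes of the 5 lists were lower and 1 higher in place of 11 and 4. Over all 18416 expressed probe sets this covariate took the lower calls from 1732 (9.40%) to 522 (2.83%). With the ratio over all control pairs the counts were 9, 11 and 4, with 9.25% of all expressed probe sets lower and 7.38% higher. Array weights gave 10 member probe sets, with SCG3 added (adjusted p = 0.0194), and 17 list genes lower, with 15.3% of all expressed probe sets lower. Of the list genes, 2 were higher with median centring, 1 with no filter and 2 without both Basset Hounds. The shares of all tested probe sets that were higher in these fits were 6.93%, 3.69% and 7.84%. Leaving out 1 dog at a time gave 7 to 10 member probe sets lower and 0 higher, 8 to 15 list genes lower and 1 to 3 higher, the lowest count of 1 without glaucoma 4, healthy 1, healthy 2 or healthy 5. Of all expressed probe sets, 6.09% to 11.5% were lower and 4.70% to 8.72% higher with 1 dog left out. With age as a covariate 6 member probe sets were lower in place of 9 and 0 were higher. In that fit 12 list genes were lower and 3 higher, with 4.81% of all expressed probe sets lower and 6.77% higher. The slope for age rested on the diseased dogs alone, since all healthy dogs had the same age.

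The replicate numbers of the labels did not pair the samples, since deviations of dogs with the same number correlated at -0.2426 to 0.069. With the replicate block 9 member probe sets were lower, and 10 list genes lower and 3 higher, against 6.05% lower and 5.12% higher of all expressed probe sets. Probe sets under the minimum for expression (5 of 17) cannot be read as absent transcripts.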
